A study of Mus musculus with 2 samples.

Results

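The 10 genes described here serve the formation, fusion and nerve response of skeletal muscle cells: the transcription factor genes Myod1, Myog, Myf5, Myf6 and Pax7, the fusion genes Tmem8c and Gm7325, and the acetylcholine receptor genes Chrna1, Chrnd and Chrng. They were taken by symbol from the 24346 genes listed, and all 10 were found in both libraries. They were chosen by their FPKM in these same libraries, several being higher without PU.1, so every difference given for them is a description and carries no test. The data were bulk mRNA-Seq levels from dorsal skin wounds of C57BL/6J mice. One library (WT) came from wild-type pups and the other (PU.1-/-) from littermates with the PU.1 knockout. The pups were wounded at 1 day of age and the wounds were collected 24 h later. PU.1, encoded by Spi1, is a transcription factor that blood cells need to become macrophages, neutrophils and mast cells. The methods describe incisions and the design text describes excisions, and neither gives the number of pups in a library or how much underlying muscle was taken with the skin.

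Dorsal skin of the mouse lies on a thin sheet of skeletal muscle, the panniculus carnosus. In such muscle Pax7 marks the stem cells, Myf5 and Myod1 commit them to the lineage, myogenin (Myog) drives myoblasts to differentiate, and Myf6 is the factor that persists in fibres. Differentiating myoblasts merge into fibres through myomaker (Tmem8c, now Mymk) and myomixer (Gm7325, now Mymx). The fetal acetylcholine receptor is built from the alpha, beta, delta and gamma subunits, and the epsilon subunit replaces gamma as the nerve contact matures. Nerve activity holds down the receptor genes and Myog in mature fibres.

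Myogenic factors bind E-boxes, the 6 letters CANNTG, which read the same on both strands. A promoter window is shown for the members that bracket the range of differences among those with an entry in the RefSeq table. Chrng, Myog and Chrna1 were past 2-fold in favour of PU.1-/-, and Pax7 had the smallest difference. Each line gives the 250 bases of the window, 5′ to 3′ on the strand of the gene, with E-boxes in capitals. They lie at chr1:87205561-87205810 (plus strand), chr1:134289754-134290003 (plus strand), chr2:73580339-73580588 (minus strand) and chr4:139832969-139833218 (minus strand) of GRCm38.p6, the RefSeq assembly of mm10. The windows of Chrng, Myog and Chrna1 end just before the gene start. That of Pax7 lies inside the gene span, which begins at 139833530 on its strand, and the bases before that position were not examined.
Chrng: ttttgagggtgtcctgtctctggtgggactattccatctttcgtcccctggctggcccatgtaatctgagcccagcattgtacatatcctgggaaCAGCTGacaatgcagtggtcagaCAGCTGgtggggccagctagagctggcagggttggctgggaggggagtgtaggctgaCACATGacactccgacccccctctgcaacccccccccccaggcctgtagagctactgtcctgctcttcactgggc
Myog: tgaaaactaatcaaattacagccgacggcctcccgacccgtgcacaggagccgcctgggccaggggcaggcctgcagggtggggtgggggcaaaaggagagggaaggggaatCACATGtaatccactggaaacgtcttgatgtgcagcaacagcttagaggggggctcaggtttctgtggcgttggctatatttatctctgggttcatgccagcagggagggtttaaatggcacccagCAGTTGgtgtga
Chrna1: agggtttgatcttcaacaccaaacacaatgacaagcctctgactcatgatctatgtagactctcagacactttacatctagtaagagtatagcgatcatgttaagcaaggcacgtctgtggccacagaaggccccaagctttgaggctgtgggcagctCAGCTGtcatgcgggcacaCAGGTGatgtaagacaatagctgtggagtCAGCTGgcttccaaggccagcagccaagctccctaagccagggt
Pax7: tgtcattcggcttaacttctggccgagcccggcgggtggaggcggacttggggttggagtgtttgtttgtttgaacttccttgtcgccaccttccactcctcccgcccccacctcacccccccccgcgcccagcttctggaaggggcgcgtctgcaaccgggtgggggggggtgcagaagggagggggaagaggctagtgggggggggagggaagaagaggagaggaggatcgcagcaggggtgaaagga
Chrng held 3 E-boxes, Chrna1 held 3, Myog held 2 and the window inside Pax7 held 0. In Chrng and in Chrna1, 2 of the 3 were of the form CAGCTG. Of all 32851 windows of this length in the table, 66.2% held at least 1 CANNTG, 12.2% held at least 3, and 1.26% held at least 2 of CAGCTG. Myf5, the other member with an entry, held 0 of either form. Its window (chr10:107486135-107486384) also lies inside the gene span, which begins at 107486927 on the minus strand, so the bases before Myf5 were not examined. Myod1, Myf6, Tmem8c, Gm7325 and Chrnd had no entry. Among the receptor subunits that were not members, Chrnb1 held 3 E-boxes, none of them CAGCTG, and Chrne held 1, which was CAGCTG. A match of letters is not evidence of binding.

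**Figure D1:**
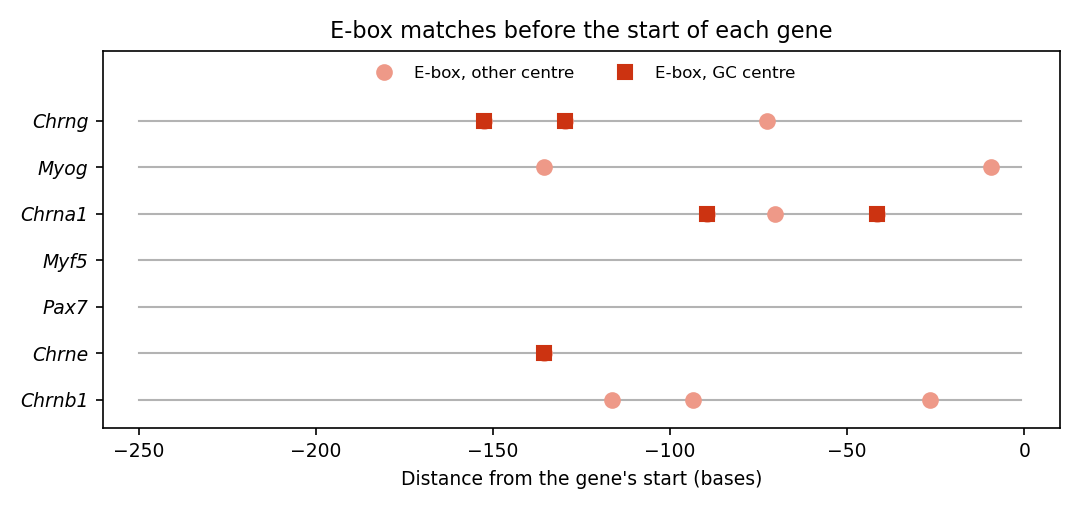
Positions of E-boxes in a window of 250 bases for each of 7 genes, with distance in bases from the end of the window, drawn as the start, on the horizontal axis. The windows of Myf5 and Pax7 lie inside the gene span and not before it. Squares mark E-boxes with GC at their centre and circles all others; Chrng and Chrna1 hold 2 squares each, and the lines of Myf5 and Pax7 are empty.

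Both libraries carried the marks of their genotype. Spi1 stood at 35.4 FPKM in WT against 1.45 FPKM in PU.1-/-, and all 6 leukocyte markers examined were at least 2-fold lower, from a sum of 371 FPKM to 5.70 FPKM. FPKM scales fragments to the length of the transcript and to the size of the library, so levels can be compared between genes within a library. The libraries also differed in the sex of the pups: Xist was listed at 0 in WT against 9.48 FPKM in PU.1-/-, while the 4 Y-linked genes examined were listed at 0 in the latter. Genotype and sex cannot be told apart here. Recovered read numbers put the depth, the total that the FPKM values imply, near 1.38e+07 reads (WT) and 1.59e+07 reads (PU.1-/-). Reads estimated from the longest transcripts of 22347 genes summed to more, 1.54e+07 and 1.79e+07, so the depth is approximate. Log2 ratios are of PU.1-/- over WT, and their median for the 13237 genes that reached 1 FPKM in either library was -0.00.

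All 10 members had a higher value in the PU.1-/- library, 7 of them by at least 2-fold, and none was lower. Of all listed genes, 2.32% were higher by that factor and 4.34% lower, and of those that reached 1 FPKM in either library 1.71% were higher and 4.45% lower. At a limit of 1.5-fold 9 members were higher, beside 5.79% of all genes, and at 3-fold 4 were, beside 0.616%. Since this contrast chose the members, nothing is read from the difference between these shares. The median log2 ratio of the members was 1.35. Myod1 was the member just inside the 2-fold limit, at a ratio of 2.09, and Myf5 the one just outside, at 1.69. With 1 library per genotype there is no spread between animals and no test. The 95% intervals below are exact binomial or Poisson intervals on read numbers estimated from FPKM, and cover counting error only. In bulk tissue, more muscle cells and more RNA per muscle cell cannot be told apart.

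**Figure D2:**
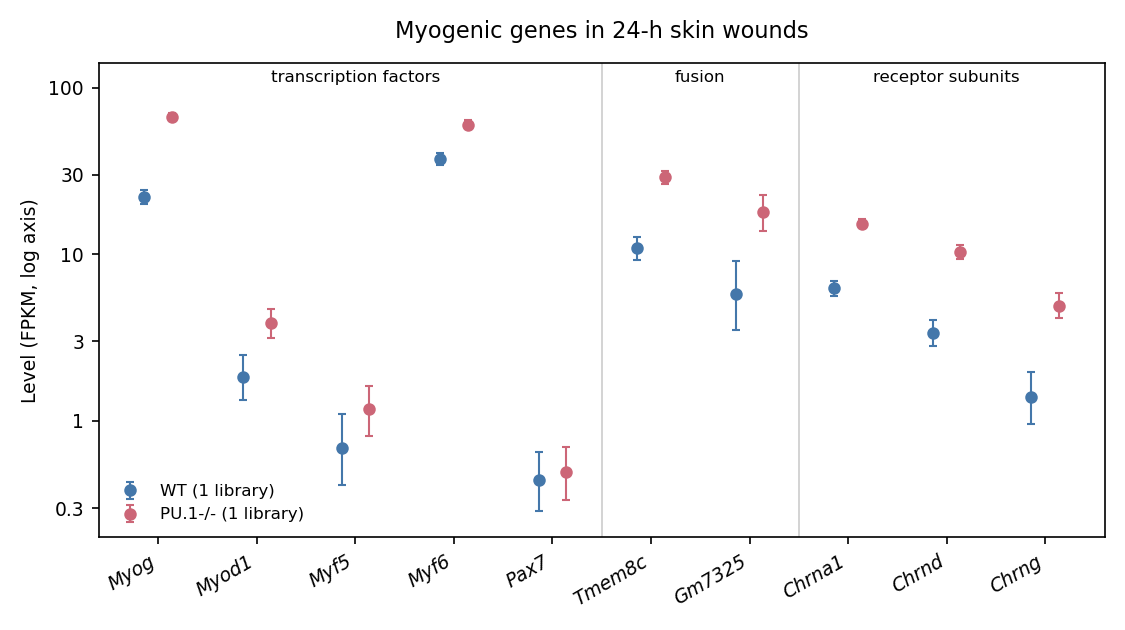
Level of each member in the WT (blue) and PU.1-/- (red) wound library, in FPKM on a log axis. Points are single libraries and bars are 95% counting intervals; the bars of the 2 libraries overlap for Myf5 and Pax7 and are apart for the other 8 genes.

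Among the transcription factors, Myog differed most. Myog, on chromosome 1 from 134290004 to 134292548, stood at 22.1 FPKM in WT against 66.6 FPKM in PU.1-/-, for a ratio of 3.01 (interval 2.69 to 3.38). Myod1, on chromosome 7 from 46376474 to 46379092, had 1.84 and 3.86 FPKM, a ratio of 2.09 (1.45 to 3.08) from 42 and 101 reads. Myod1, a factor of commitment, and Myog, the factor of differentiation, were thus both higher in the PU.1-/- library. Myog was in excess of Myod1 in both libraries. Myf6, on chromosome 10 from 107492848 to 107494723, had 37.4 and 59.8 FPKM, a ratio of 1.60 (1.44 to 1.78). In the WT library Myf6, the factor of fibres, was the most abundant member, and Myog stood at 0.592 times its level, with intervals that do not overlap. In the PU.1-/- library Myog stood at 1.11 times the level of Myf6, with overlapping intervals.

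The genes of stem cells and early myoblasts were low in both libraries. Myf5, 5920 bases from Myf6 on chromosome 10 (107482908 to 107486927), stood at 0.693 FPKM in WT against 1.17 FPKM in PU.1-/-. Its ratio of 1.69 (0.933 to 3.17) rested on 18 and 35 reads. Pax7, on chromosome 4 from 139737059 to 139833530, had 0.443 and 0.493 FPKM, a ratio of 1.11 (0.640 to 1.96). At this depth a difference was not detectable for either gene, since both intervals hold 1. The level of Myog over that of Pax7 was 49.9 in WT against 135 in PU.1-/-.

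Both fusion genes were higher by a similar factor. Tmem8c, on chromosome 2 from 27061636 to 27072161, encodes the membrane protein that readies myoblasts for fusion, and stood at 10.9 FPKM in WT against 28.9 FPKM in PU.1-/-, for a ratio of 2.66 (2.21 to 3.21). Gm7325, on chromosome 17 from 45600961 to 45602196, encodes the small protein that opens the fusion pore, and had 5.80 and 17.8 FPKM, a ratio of 3.07 (1.88 to 5.56). Tmem8c stood at 1.88 times the level of Gm7325 in WT and at 1.62 times in PU.1-/-. Gm7325 has short transcripts, the shortest of 442 nt, for which its value stands for about 19 reads in WT, and its interval is wide.

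All 3 receptor members were at least 2-fold higher. Chrna1, on chromosome 2 from 73563281 to 73580338, encodes the alpha subunit that binds acetylcholine, and stood at 6.23 FPKM in WT against 15.3 FPKM in PU.1-/-, for a ratio of 2.45 (2.17 to 2.77). Chrnd, the delta subunit, had 3.37 and 10.4 FPKM, a ratio of 3.07 (2.52 to 3.77). It lies on chromosome 1 from 87190597 to 87200070, and Chrng follows 5740 bases further, from 87205811 to 87211835. Chrng, the fetal gamma subunit, had 1.39 and 4.91 FPKM, a ratio of 3.54 (2.40 to 5.34), the largest among the members. The smallest whole numbers of reads that give the ratio of Chrng are 33 and 134.

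Of the 2 muscle subunits that were not members, Chrnb1 was less different, and Chrne had too few reads to tell. The members were chosen with this contrast in view, so nothing is read from the smaller difference of a subunit left out. Chrnb1, the beta subunit of both receptor forms, stood at 6.58 FPKM in WT against 10.4 FPKM in PU.1-/-, for a ratio of 1.58 (1.31 to 1.91), whose interval lies below those of Chrna1, Chrnd and Chrng. Chrne, the adult epsilon subunit, had 0.0522 and 0.182 FPKM, which stand for 1 and 4 reads. The fetal subunit outweighed the adult one in both libraries, with Chrng at 26.6 times the level of Chrne in WT and 27.0 times in PU.1-/-, a comparison limited by the reads of Chrne. Among the 5 subunits, Chrnb1 made up 37.3% of the summed FPKM in WT against 25.3% in PU.1-/-, while Chrnd made up 19.1% and 25.2%. Chrng stood at 0.223 times the level of Chrna1 in WT and at 0.322 times in PU.1-/-. The share of Chrna1 was 35.4% and 37.2%.

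**Figure D3:**
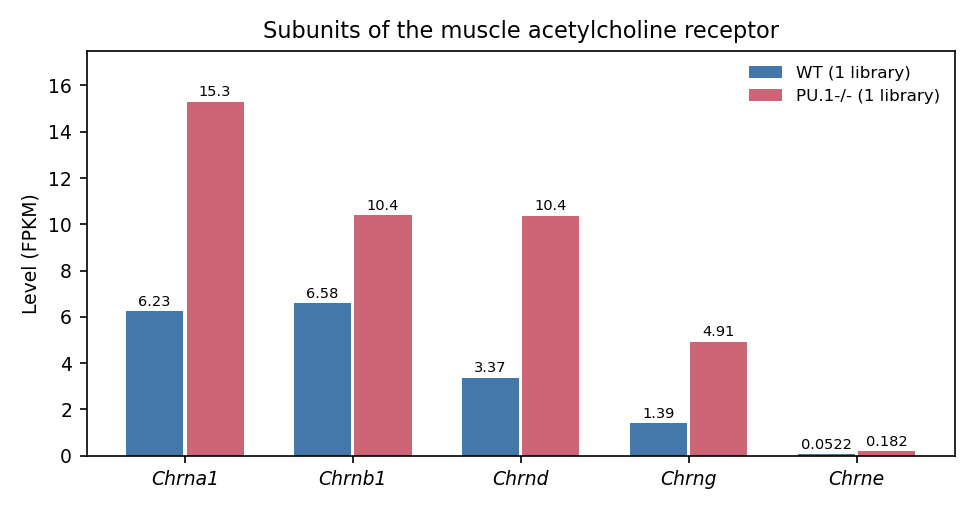
Levels of the 5 muscle acetylcholine receptor subunits in FPKM, with 1 bar per library (WT blue, PU.1-/- red) and no error between animals. Chrnb1 and Chrna1 are level in the WT library at 6.58 and 6.23 FPKM, and Chrna1 stands above the others in the PU.1-/- library at 15.3 FPKM.

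The order of the members within a library was nearly the same in both. It ran Myf6, Myog, Tmem8c, Chrna1, Gm7325, Chrnd, Myod1, Chrng, Myf5 and Pax7 in the WT library. The counting intervals of Chrna1 and Gm7325, Gm7325 and Chrnd, Myod1 and Chrng, Chrng and Myf5, and Myf5 and Pax7 overlap there. In the PU.1-/- library Myog stood above Myf6, Gm7325 above Chrna1 and Chrng above Myod1, and the intervals of each of these 3 pairs overlap.

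Genes of the contractile apparatus moved the same way and by less than most members. Of the 29 sarcomere and calcium genes listed, 27 had a higher value in the PU.1-/- library, 9 by at least 2-fold and none lower by as much, and their summed level went from 11689 to 19398 FPKM. The 21 of them with at least 10 FPKM in both libraries had a median log2 ratio of 0.89, from 0.48 to 1.35, or 1.85-fold. The highest of these was Tnni1, the slow troponin I of developing fibres, with 13.3 and 33.9 FPKM. Among the others Actc1, the cardiac actin that fetal muscle also uses, had 51.4 and 117 FPKM. The calcium gene Atp2a1 had 121 and 262 FPKM, a log2 ratio of 1.12. Myl4, 1 of the fetal and perinatal genes used below, had 150 and 259 FPKM, a log2 ratio of 0.79. Of all 29, those without a higher value were Mb, at 4.22 and 2.73 FPKM, and Myh4, at 0.531 and 0.484 FPKM. The part that a different amount of muscle in the sample has in the members' values was not tested.
Set against that median, Chrng was higher by a further 0.94 on the log2 scale, Gm7325 by 0.73, Chrnd by 0.73, Myog by 0.71, Tmem8c by 0.52 and Chrna1 by 0.41. For these 6 the counting interval lay above 0.89, and 5 of them, all but Chrna1, exceeded every one of the 21 contractile genes. The members were chosen with this contrast in view, so nothing is read from this excess. Myod1 was within its interval of the median, at 0.18 above it. Myf5 stood at -0.13 and Myf6 at -0.21 relative to the median, and Pax7 at -0.73. The interval of Myf6 lay below the median and those of Myf5 and Pax7 held it. These positions depend on the reference. Against the 11 contractile genes of at least 100 FPKM (median 0.68) Myf6 stood at -0.00, with that median inside its interval, and Myf5 at 0.08. Against the 6 fetal and perinatal genes (median 1.02, or 2.03-fold) the intervals of Chrng, Chrnd, Myog, Tmem8c and Chrna1 still lay above the reference. That of Gm7325 no longer did with reads from its shortest transcript. With reads from its longest transcript (48 and 171) its lower bound was 2.24-fold, above the reference, so its position depends on the length used. The median of the members less that of the reference was 0.47 with the 21 genes, 0.67 with the 11 and 0.33 with the 6.

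**Figure D4:**
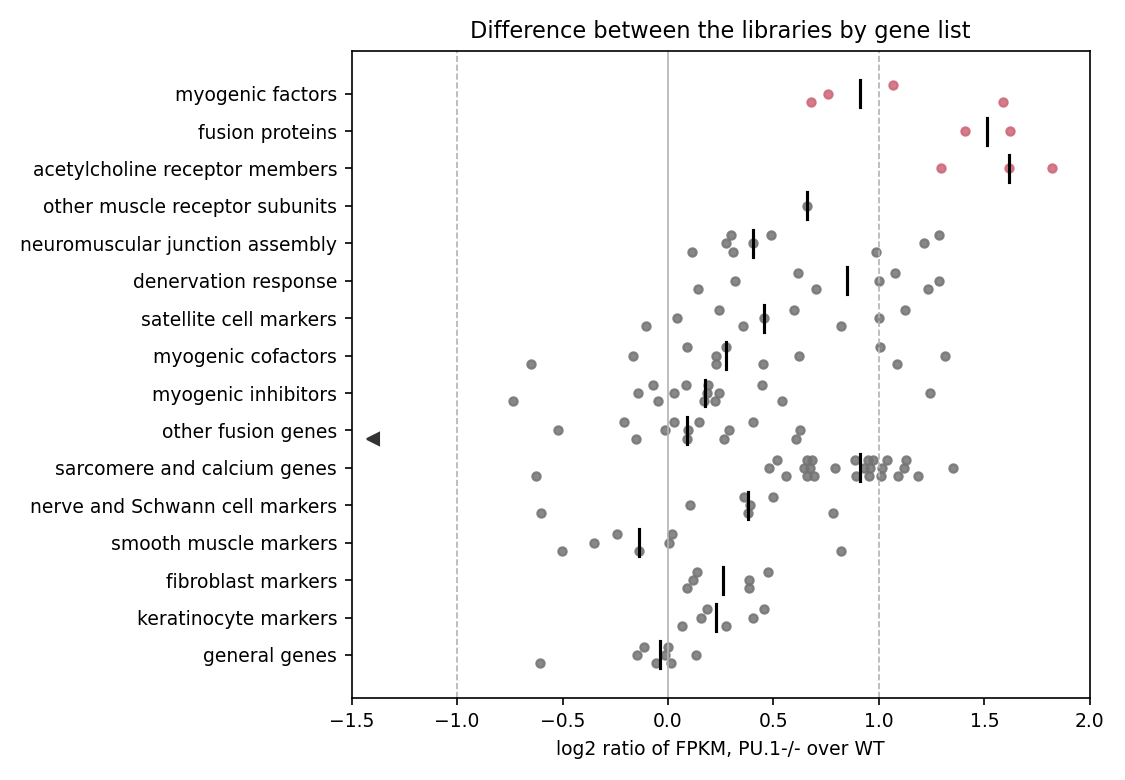
Log2 ratio of FPKM (PU.1-/- over WT) for the genes of 16 lists, with 1 point per gene that reached 1 FPKM in either library and the median of each list as a bar; dashed lines mark 2-fold. The 9 members shown (red, Pax7 is below 1 FPKM) run from 0.68 to 1.82, above the medians of the non-muscle lists, and 1 gene beyond the axis (Tmem8, -7.32) is drawn as a triangle.

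Genes of the nerve-muscle contact were split. Of the 10 listed, 2 were at least 2-fold higher and all 10 had a higher value, with a median log2 ratio of 0.45. Musk, the receptor kinase that sets up the contact, had 1.65 and 4.02 FPKM, a ratio of 2.44 (1.89 to 3.18), and Dok7, its adaptor, 1.43 and 3.31 FPKM, a ratio of 2.32 (1.64 to 3.38). Rapsn, which clusters the receptor, had 3.38 and 6.68 FPKM, a ratio of 1.98 (1.47 to 2.68). The genes that many cell types use were nearer to 1, with Agrn at 18.9 and 20.4 FPKM and Utrn at 10.1 and 13.4 FPKM.
In the list of genes known to change when muscle loses its nerve, 4 of 10 were at least 2-fold higher and none lower, with a median of 0.66. They were Musk, Ncam1, an adhesion molecule, at 6.13 and 12.3 FPKM, and the ubiquitin ligases of muscle wasting Fbxo32, at 16.1 and 37.8 FPKM, and Trim63, at 54.2 and 114 FPKM. The histone deacetylases of this response hardly differed, with Hdac4 at 9.94 and 11.0 FPKM and Hdac9 at 0.735 and 0.671 FPKM, and Runx1, which blood cells also express, had 12.2 and 15.3 FPKM.

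Of 10 markers of muscle stem cells other than the members, 8 had a higher value in PU.1-/-, with a median log2 ratio of 0.41. At least 2-fold higher were 2 of them, Cdh15, the cadherin of myoblasts, at 16.4 and 35.7 FPKM, and Ncam1. Des, the muscle intermediate filament, had 396 and 699 FPKM, Itga7, the muscle integrin, 27.1 and 34.7 FPKM, Spry1, a growth factor antagonist, 32.4 and 44.4 FPKM, and Pax3 1.22 and 1.44 FPKM. Lbx1, a factor of migrating muscle precursors, had a ratio of 1.51. The 2 that were not higher were Met and Calcr. Met, the hepatocyte growth factor receptor, had 7.33 and 6.81 FPKM. Calcr, a marker of resting stem cells, was near 0 in both libraries, at 0.0883 and 0.0384 FPKM.
Of the 12 partners and early targets of the myogenic factors, 3 were at least 2-fold higher. Mybph, a myosin-binding protein, had 33.1 and 82.2 FPKM, Smyd1, a methyltransferase of muscle, 4.59 and 9.75 FPKM, and Csrp3, a LIM protein, 34.1 and 68.5 FPKM. The general partners were alike in both, with Tcf3 at 39.3 and 35.0 FPKM and Tcf12 at 34.8 and 40.8 FPKM. Of the 17 genes on the list of other fusion genes and relatives of Tmem8c, 0 were at least 2-fold higher, with a median of 0.03. The 1 that was at least 2-fold lower was Tmem8, which is on the list only as a relative of Tmem8c.
Of 14 inhibitors of the myogenic factors, 10 had a higher value in PU.1-/-, with a median log2 ratio of 0.18, and 1 was at least 2-fold higher, Msc, at 0.670 and 1.58 FPKM. Twist1, which blocks the myogenic factors, had 23.9 and 34.8 FPKM, and Id3 76.8 and 89.6 FPKM. Id2, which binds the partners of the myogenic factors, had 61.2 and 36.8 FPKM, and Id1 118 and 112 FPKM.

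Markers of the other cells of skin, leukocytes aside, differed less than the median of the members. Neither the 6 fibroblast nor the 6 keratinocyte markers held a gene past 2-fold, and their summed levels went from 2605 to 3056 FPKM and from 10118 to 11667 FPKM. Nerve and Schwann cell markers had 7 of 8 values higher in the PU.1-/- library, 0 of them by 2-fold, and a sum of 137 and 161 FPKM. Smooth muscle markers had a median of -0.19, and the only one of 8 above 0.1 was Des, which skeletal muscle shares. The part of the nerve in the receptor genes was not tested. Of 4 heart markers, Myh6 had 0.0248 and 0.0108 FPKM, Nppa 0 and 0.204 FPKM, Myl2 0.344 and 0 FPKM, and Myl7 had the most, 1.53 FPKM in WT and a log2 ratio of 0.39. The 8 genes that all cells use had a median log2 ratio of -0.04.

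The nearest protein-coding genes on each side that were not members made up 16 genes with values, of which 3 were at least 2-fold higher (Ppfia4, Lin7a and Capn11, none above 1.13 FPKM) and 1 lower, with a median log2 ratio of 0.04. Ppfia4, 4234 bases from Myog, had 0.528 and 1.13 FPKM, and Eif4e2, 2075 bases from Chrng, had 45.9 and 48.8 FPKM. Slc29a1, 1342 bases from Gm7325, had 25.4 and 20.5 FPKM.
Among 9756 genes that reached 5 FPKM in either library and were not members, the 10 whose log2 ratio was nearest to the members' (median 1.41 over those of at least 1 FPKM) were Reg3g, Ccl21a, Scx, Cacng1, Gm7334, Mir6363, Mylk2, Dusp26, Apod and Ppp1r27. They lie within 0.05 of that value, over 2 libraries only. Cacng1, a subunit of the muscle calcium channel, had 44.1 and 115 FPKM, and Mylk2, the myosin kinase of skeletal muscle, 4.73 and 12.8 FPKM. Others are better known from other tissues, such as Scx, the transcription factor of tendon, at 5.07 and 13.3 FPKM, and Reg3g, an antimicrobial lectin, at 14.6 and 39.3 FPKM. Of the 64 genes at least 2-fold higher that reached 10 FPKM in the PU.1-/- library, 5 were members and 17 in all were on the muscle lists. The shares of all genes and of list genes at that level were not counted. Members and lists were also chosen with results of these data known, so no enrichment is read from these numbers.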

How the data were processed

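Skin wounds of WT and PU.1-/- pups gave 1 mRNA library each. The authors read stranded libraries from 1 end over 75 bases (base calls by CASAVA 1.8.2), mapped the reads to mm10 and deposited FPKM values, calculated with Cuffnorm 2.2.1. The submitters' processing notes name TopHat2 2.1.1, Bowtie2 2.2.8, SAMtools 0.1.18 and Cuffdiff 2.2.1. The annotation is not given in the sources used here.

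Ratios were taken from the deposited FPKM, with values below 0.1 raised to 0.1, and genes past 2-fold were counted. Members were also set against the median log2 ratio of contractile genes of at least 10 FPKM in both libraries, and in turn against those of at least 100 FPKM and against fetal and perinatal genes. Low genes were taken to differ by ratios of whole reads, and the share that do was not counted. At the commonest ratio, in 459 genes below 2 FPKM in WT, the WT value was 1.15 times the other (tolerance 0.001). This was read as each library holding the same number of reads. With the lengths of GENCODE transcripts linked to RefSeq, less a mean fragment of 200 nt, this gave the depth, from the 709 genes around the commonest of 2218 estimates. Reads of a member are the 1 pair of whole numbers within 15% of the length estimate (tolerance 5e-06), the smallest such pair if none lies there, or otherwise the estimate from the shortest transcript. This holds for FPKM made with a fixed length per gene and is approximate for genes of several transcripts (Tmem8c and Gm7325). Ratio intervals are exact binomial and level intervals exact Poisson, at 95%. Functions were tested on simulated data.

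The members and gene lists were chosen with earlier results of these data known. All members, Spi1, genes of the lists (those past 2-fold first, then the most abundant or defining) and the 10 genes of nearest ratio could be named. Gene neighbours, chosen by position, were added after the values were seen, as were the low-level genes named beside their lists. Some lists share genes (Musk, Ncam1 and Des). Positions and sequences are from RefSeq on GRCm38.p6, the assembly of mm10. No replicate exists and no test was made. Scripts ran in Python 3.11.15 with scipy 1.17.1 and numpy 2.4.6 for statistics, pandas 2.3.3 for tables and matplotlib 3.10.9 for plots.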

Additional observations from a re-analysis of the deposited data

How the results depend on the processing

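The number of members at least 2-fold higher was 7, and a threshold of 3-fold left 4 (Myog, Gm7325, Chrnd and Chrng). With a pseudocount of 1 FPKM 6 members were at least 2-fold higher, Myod1 being at a log2 ratio of 0.77. With that pseudocount the number at least 2-fold higher went from 9 to 4 among the contractile genes, from 2 to 0 among the nerve contact genes, from 4 to 2 in the denervation list, from 3 to 1 among the cofactors, from 2 to 1 among the stem cell markers and from 1 to 0 among the inhibitors. All 69 log2 ratios of single members recomputed under other floors, pseudocounts, scalings and filters stayed within the counting interval, and none fell below 0, with Pax7 at 0 when values below 1 FPKM were raised to 1. The alternative scalings shifted all log2 ratios by 0.05 or less. Pax7 and Myf5 rest on few reads, and their intervals reach 1.96-fold and 3.17-fold. No paired analysis was possible because each genotype has 1 library.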

Other observations

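The nicotinic subunits of neurons and other cells were close to 0 in the wounds. None of the 11 reached 1 FPKM in either library, and 3 of them, Chrna5, Chrna10 and Chrnb2, were past 2-fold at values of 0.114 and 0.248 FPKM, 0.0938 and 0.272 FPKM, and 0.153 and 0.327 FPKM, which a floor of 1 FPKM removes.

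Tmem8 (now Pgap6), a relative of Tmem8c, stood at 18.5 FPKM in WT against 0.116 FPKM in PU.1-/-, a log2 ratio of -7.32 from 834 and 6 reads.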
